A study of Mus musculus with 4 samples.

Results

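Airway secretory and antimicrobial genes were followed in spatial transcriptomes of mouse lung, with the primary tumour of the same animals as background. The set names 9 genes by symbol. Of these, 7 have a row among the 19465 genes of the probe panel's table (Scgb3a2, Muc5b, Lypd2, Bpifa1, Bpifb1, Reg3g and Pigr), and the secretoglobin genes Scgb1a1 and Scgb3a1 were not analysed here. The study took 1 lung section and 1 primary tumour section (labelled Breast tumor) from each of 2 BALB/c mice, Mouse_627 and Mouse_628, so that n = 2 sections per tissue, and pairs of values below are for Mouse_627 and then Mouse_628. Every mouse was 8 weeks old when 100000 cells of 4T1, a transplantable mouse mammary carcinoma line, were placed in its mammary fat pad, and was killed 28 days later. Both lungs therefore come from tumour-bearing animals, and a lung without tumour was not analysed here. Visium for formalin-fixed, paraffin-embedded tissue counts pairs of probes per gene by unique molecular identifiers (UMIs) in barcoded spots, and a spot covers a patch of tissue wide enough for more than a single cell and cell type. Because every gene has its own probes, levels are compared between places and not between genes.

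The conducting airways are lined by ciliated cells, which move mucus, and by secretory cells, which make it. Club cells secrete secretoglobins and carry xenobiotic-metabolising enzymes such as Cyp2f2. Goblet and gland cells supply gel-forming mucins such as Muc5b, and proteins of the BPI fold family (Bpifa1, also called SPLUNC1, and Bpifb1) are abundant in the lining fluid of the nose, trachea and large bronchi. Reg3g is a bactericidal lectin of barrier epithelia, Pigr carries polymeric IgA across the epithelium into the lumen, and Lypd2 is a member of the Ly6 family of small membrane proteins.

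The promoters of 5 of the 9 genes are in the RefSeq table of build GRCm38.p6 (250 bases before to 50 after the gene start). Bpifa1 (gene at chr2:154142880-154149219) and Bpifb1 (chr2:154190818-154220369) follow each other on the plus strand of the same chromosome. Reg3g lies at chr6:78466269-78468872 on the minus strand and Pigr at chr1:130826684-130852249 on the plus strand. The sequences are shown for the 3 genes whose spatial patterns are most alike below and for Pigr, whose pattern differs. They run 5′ to 3′ on the strand of the gene, with capitals for any match on either strand to 5 letter patterns. These were TTGCNNAA for C/EBP factors, TTCNNNGAA for STAT factors, the letters TGTTTNC for forkhead factors, GGGA and CC with any 4 bases between them for NF-kappaB, and the TATA box as TATAAA.
Bpifa1, chr2:154142630-154142929: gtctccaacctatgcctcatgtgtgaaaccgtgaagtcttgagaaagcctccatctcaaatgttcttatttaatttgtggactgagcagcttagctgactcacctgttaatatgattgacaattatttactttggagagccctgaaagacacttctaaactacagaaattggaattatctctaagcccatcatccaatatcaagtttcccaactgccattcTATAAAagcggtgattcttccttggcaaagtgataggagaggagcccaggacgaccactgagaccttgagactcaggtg
Bpifb1, chr2:154190568-154190867: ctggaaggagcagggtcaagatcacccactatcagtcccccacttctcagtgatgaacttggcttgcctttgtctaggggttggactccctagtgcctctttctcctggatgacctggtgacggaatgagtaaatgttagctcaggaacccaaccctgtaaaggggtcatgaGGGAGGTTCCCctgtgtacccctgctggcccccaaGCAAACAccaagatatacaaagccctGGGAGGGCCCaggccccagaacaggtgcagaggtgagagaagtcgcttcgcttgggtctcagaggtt
Reg3g, chr6:78468825-78469124: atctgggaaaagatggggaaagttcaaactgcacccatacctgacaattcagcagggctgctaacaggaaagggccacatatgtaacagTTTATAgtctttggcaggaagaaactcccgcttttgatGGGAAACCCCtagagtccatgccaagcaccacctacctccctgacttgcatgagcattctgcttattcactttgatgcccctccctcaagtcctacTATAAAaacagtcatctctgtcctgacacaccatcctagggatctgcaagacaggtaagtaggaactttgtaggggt
Pigr, chr1:130826434-130826733: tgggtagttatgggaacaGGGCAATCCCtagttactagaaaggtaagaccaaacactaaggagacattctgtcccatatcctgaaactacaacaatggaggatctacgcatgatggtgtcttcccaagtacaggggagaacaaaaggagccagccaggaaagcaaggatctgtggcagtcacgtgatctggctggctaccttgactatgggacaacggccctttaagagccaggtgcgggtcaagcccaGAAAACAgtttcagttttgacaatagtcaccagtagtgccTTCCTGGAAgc
A TATA box match starts 29 bases before the start of Bpifa1 and 27 bases before that of Reg3g, with another match 161 bases before the latter, and 13.6% of 32851 promoters of this length hold it. The first Bpifb1 start and the Pigr start have no such match in this window. The Bpifb1 window shown has 3 matches to the NF-kappaB pattern, of which those at 78 and 77 bases before the start overlap, and a forkhead match 43 bases before it. The window of a second Bpifb1 start, chr2:154200130-154200429, is not shown. It has a STAT match 146 bases before that start and no match to the other patterns. Reg3g has 1 NF-kappaB match, 123 bases before the start, and Pigr has 1 each of the NF-kappaB, forkhead and STAT patterns. The share of promoters with the pattern is 20.7% for NF-kappaB, 20.5% for forkhead, 10.8% for C/EBP and 8.30% for STAT. None of the patterns is found in all 4 windows shown, and a match is a description of the sequence only.

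Of 9445 spots under tissue, 9339 had more than 200 detected genes and were kept. The kept spots held 10890154 to 13532158 UMIs in the primary tumours and 11122812 and 30240176 UMIs in the lungs, with median depths per spot of 1820 to 2931 UMIs in the tumours and 6555 and 9174 in the lungs. Sections shared 1458 to 2030 spot barcodes, which name positions of the slide and not cells. As a measure of background, the 1178 olfactory and vomeronasal receptor genes had a mean level of 0.737 and 7.86 CPM in the primary tumours and of 0.205 and 0.155 CPM in the lungs, where CPM are UMIs scaled to a common total per section or spot class. All intervals given here are 95% intervals for counting error only.

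The first question was how far these genes separate lung from primary tumour. Reg3g stood at 230.0 and 256 CPM in the lungs (2558 and 7744 UMIs) and at 0.443 and 4.04 CPM in their tumours (6 and 44 UMIs). Bpifa1 was at 73.4 and 152 CPM in the lungs, while the tumour sections together held a single UMI of it, in Mouse_628. Scgb3a2, a secretoglobin of club cells, was at 166 and 103 CPM in the lungs and at 0.517 and 4.78 CPM in the tumours. The lungs and tumours did not overlap for any of the 7 genes, and both lungs lay above both tumours in 21.3% of the 15267 genes tested. Bpifb1 read 52.9 and 38.0 CPM in the lungs against 0.443 and 5.42 CPM in the tumours, and Muc5b 23.9 and 13.95 CPM against 0.222 and 3.03 CPM. Lypd2 read 40.6 and 19.0 CPM against 0.517 and 7.44 CPM, and Pigr 24.1 and 16.9 CPM against 0.222 and 6.06 CPM. In the tumours no spot had more than 2 UMIs of any of these genes, and their levels lay above at most 60.3% of the receptor genes, so the tumour values lie within the range of the receptor genes there. In the lungs each of the 7 lay above all 1178 receptor genes.

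**Figure D1:**
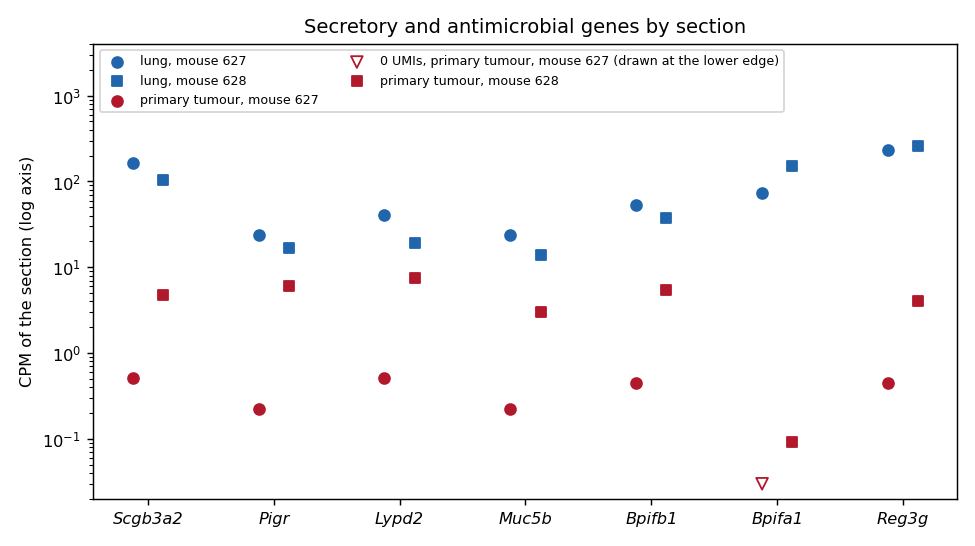
Level of each gene in CPM (log axis) in the 4 sections, lungs in blue and primary tumours in red, circles for Mouse_627 and squares for Mouse_628. All lung points lie above all tumour points of the same gene, as in 21.3% of genes tested, and the tumour of Mouse_628 lies above that of Mouse_627 throughout, as the receptor genes do.

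For the 6 genes with UMIs in both tumours the ratio of lung to tumour was larger in Mouse_627, whose tumour also had the lower receptor gene level. For Reg3g it was 519 (interval 238 to 1415) in Mouse_627 and 63.4 (47.2 to 87.3) in Mouse_628, and for Pigr 109 (36.8 to 530.3) and 2.78 (2.15 to 3.65). The tumour values lie within the range of the receptor genes, so these are ratios of counts and need not be those of expression. Their difference between the mice is a description. Bpifa1 had 816 UMIs in the lung of Mouse_627 and 0 in its tumour. This is at least 331-fold higher against a floor of 3 UMIs per library, while the counting interval of the ratio starts lower, at 268.5. In Mouse_628 its ratio was 1657 (297 to 65470), from a single tumour UMI, and the order of the mice is not known for this gene. By edgeR's quasi-likelihood test on the section sums, 7.46% of 15267 genes tested were called (adjusted p under 0.05). Of all tested, 6.31% were called higher in lung (963 genes, against 176 lower). The balance of directions turned in DESeq2, an alternative test, with 1707 called higher and 2120 lower. In edgeR 5 of the 7 genes were called higher. They were Bpifa1 (log2 fold change 11.40, SE 0.77, adjusted p = 0.000879), Reg3g (7.12, SE 0.84, 0.00419), Scgb3a2 (6.06, SE 0.86, 0.00615), Bpifb1 (4.34, SE 0.87, 0.0195) and Muc5b (3.93, SE 1.02, 0.0480). Lypd2 (log2 fold change 3.31, SE 0.96) and Pigr (3.09, SE 1.07) did not pass, with adjusted p = 0.0729 and 0.127, and passed with the mouse as a replicate block (1.31e-05 and 0.000924), where 11.9% of genes were called and 9.17% were called higher. Both also passed with the mouse numbers crossed in the block (3.99e-11 and 2.20e-08), a setting chosen after seeing the data. Their calls with the block therefore do not rest on the pairing by animal. In edgeR Muc5b and Bpifb1 lost their calls on spots thinned to 1000 UMIs (adjusted p = 0.127 and 0.0567). Muc5b also lost its call without the lung of Mouse_627, where its log2 fold change was 3.54. The size of the fold changes rests on which tumour is used. Without the tumour of Mouse_628 the log2 fold change was 6.67 for Pigr, 6.03 for Lypd2, 6.56 for Muc5b and 6.84 for Bpifb1, and without that of Mouse_627 it was 2.39, 2.67, 3.29 and 3.70. On thinned spots it was 1.73 for Pigr and 1.92 for Lypd2. The genes passed the filter on low counts through the lung sections, so the count of 5 is a description. At equal depth of 1000 UMIs per spot, Reg3g was found in 8.36% of 1687 lung spots of Mouse_627 and 6.23% of 2775 of Mouse_628, against 19.0% and 16.2% of spots before thinning. In the tumour of Mouse_628 it was found in 0.9499% of thinned spots, from 1.85%, and in that of Mouse_627 in 0%, from 0.241%. Spots under 1000 UMIs were left out of the thinned set, 886 of 2490 in the tumour of Mouse_627. The thinned values therefore differ from the others in the set of spots as well as in depth.

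Within the lung, spots over conducting airway were found without these genes, as the 5% of spots of each section with the highest summed CPM of 22 motile cilium genes. This gave 85 and 139 airway spots, with a median of 49 and 45 UMIs of the list against 5 and 3 in the other spots. All 7 genes had both airway values above both values elsewhere, as did 26.6% of genes tested. Muc5b was at 243 and 279 CPM in airway spots and at 11.2 and 4.42 CPM elsewhere, ratios of 21.6 (16.9 to 27.8) and 63.2 (51.2 to 78.3). Bpifa1 was at 749 and 3165 CPM against 34.2 and 43.9 CPM, ratios of 21.9 and 72.1. Pigr had the smallest ratios, 8.01 (6.12 to 10.4) and 33.6 (28.1 to 40.2), from 139 and 266 CPM in airway spots. For the cilium list that chose the spots, the ratios were 7.69 and 17.8. In edgeR 1.6% of 13143 genes were called, all higher, and all 7 genes were among them with log2 fold changes of 3.84 (Pigr, SE 0.61) to 5.54 (Bpifa1, SE 0.82) and adjusted p of 0.0469 to 0.0474. These calls lie close to the threshold. In edgeR none of the 7 passed without the airway sum of Mouse_628, where 0 genes were called (984 at an unadjusted p under 0.05) and their log2 fold changes were 3.29 (Pigr) to 4.79 (Muc5b), nor with 10% of spots called airway (0 genes, 1275 at an unadjusted p under 0.05), and all passed with the block, where 13.4% of genes were called and 10.9% higher (adjusted p = 2.52e-33 for Pigr). Other lists differed between airway and other spots, and their part in these results was not tested. The smooth muscle list was 4.49 and 7.14 times as high in airway spots (0 of 6 genes called, 6 with the block) and the airway basal list 22.2 and 15.5 times (9 and 84 UMIs there), while the 4T1 tumour list was at 0.686 and 0.320 of its level elsewhere (0 of 8 genes called, 6 lower with the block). The other spots of Mouse_628, where the ratios of the 7 genes were larger, had 1461 CPM of the tumour list, against 158 CPM in Mouse_627. In bulk sums of this kind, fewer cells of a type and less RNA per cell cannot be told apart.

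Among other secretory genes, all 8 club cell genes had positive log2 fold changes in airway spots and 1 was called without the block, against 8 with it, and Cyp2f2 was at 8063 and 7535 CPM there against 713 and 269 CPM elsewhere (log2 fold change 3.79, SE 0.78, adjusted p = 0.0719). Of 9 goblet cell genes tested 3 were called higher and 8 with the block, among them the trefoil factor Tff2 (4.82, SE 0.63, adjusted p = 0.0469) and Agr2, a protein disulphide isomerase that mucin assembly needs (4.17, SE 0.69, 0.0493). Of the epithelial defence list (Lcn2, Ltf, Wfdc2, Cxcl15 and others) 0 of 9 tested were called, 2 rose and 1 fell with the block, and the median log2 fold change of -0.16 was near the -0.11 of all genes. Wfdc2, a small protease inhibitor-like secreted protein, was among those that rose with the block (2.14, SE 0.50, adjusted p = 0.0968, and 2.49e-06 with the block). The summed list went opposite ways in the mice, at 0.819 (0.793 to 0.845) and 1.77 (1.73 to 1.82) times its level elsewhere. Of 7 tested cytokine and receptor genes upstream of such defence genes in other epithelia, such as Il17ra and Il1b, 0 were called and 1 with the block.

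**Figure D2:**
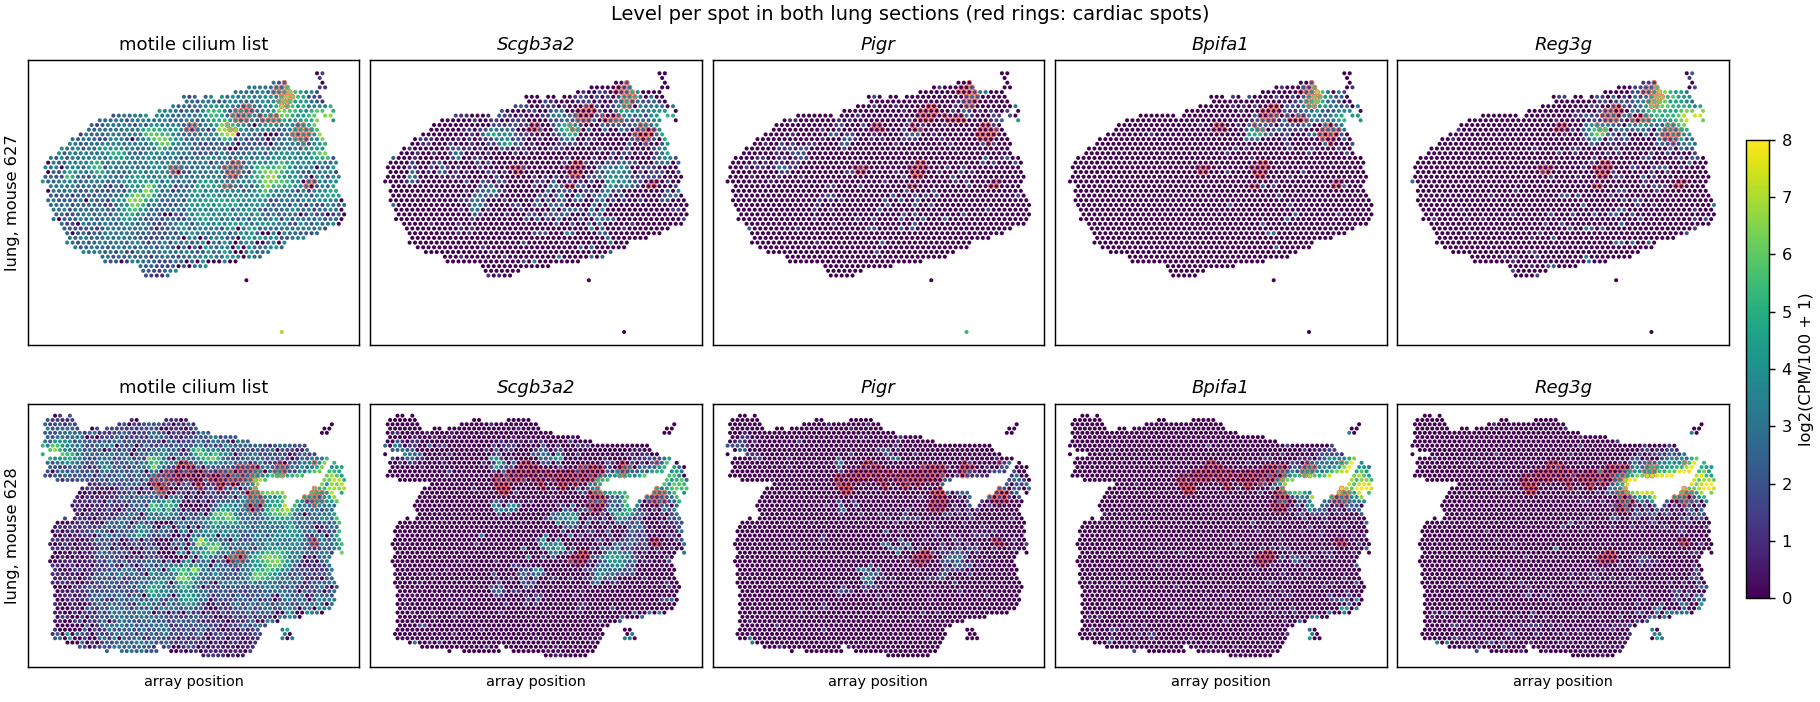
Level per spot, as log2(CPM/100 + 1), of the motile cilium list, Scgb3a2, Pigr, Bpifa1 and Reg3g in the lung of Mouse_627 (top) and Mouse_628 (bottom), with cardiac spots ringed in red; axes are positions on the slide. The cilium list and Scgb3a2 mark many separate places of each section, while Bpifa1 and Reg3g mark 1 corner of it.

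Every gene was lower 1, 2 and 3 steps away than in airway spots. Distance was counted in steps of the hexagonal array. At 1 step Scgb3a2 was at 30.1% and 20.4% of its CPM in airway spots, Bpifa1 at 24.3% and 16.3%, Reg3g at 31.9% and 21.1% and Pigr at 33.7% and 24.7%. At 3 steps Bpifa1 had fallen to 3.99% and 1.09%, and Pigr to 9.69% and 4.50%. Farther out the fall was not steady in either lung. In Mouse_627 Pigr was at 13.7% at 4 to 5 steps (53 UMIs) and Reg3g at 0.576% at 6 to 10 steps and 1.44% beyond. In Mouse_628 Bpifb1 was at 0.138% at 6 to 10 steps (9 UMIs) and 0.256% beyond (21 UMIs), and Bpifa1 at 0.179% and 0.191%. Beyond 10 steps Bpifa1 was at 0.282% and 0.191% of its airway level, 2.11 and 6.06 CPM. Of the 7 genes Pigr had the highest share there, 7.57% and 0.362%, from 10 UMIs in each lung. Scgb3a2 was at 2.72% and 0.234% at that distance.

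**Figure D3:**
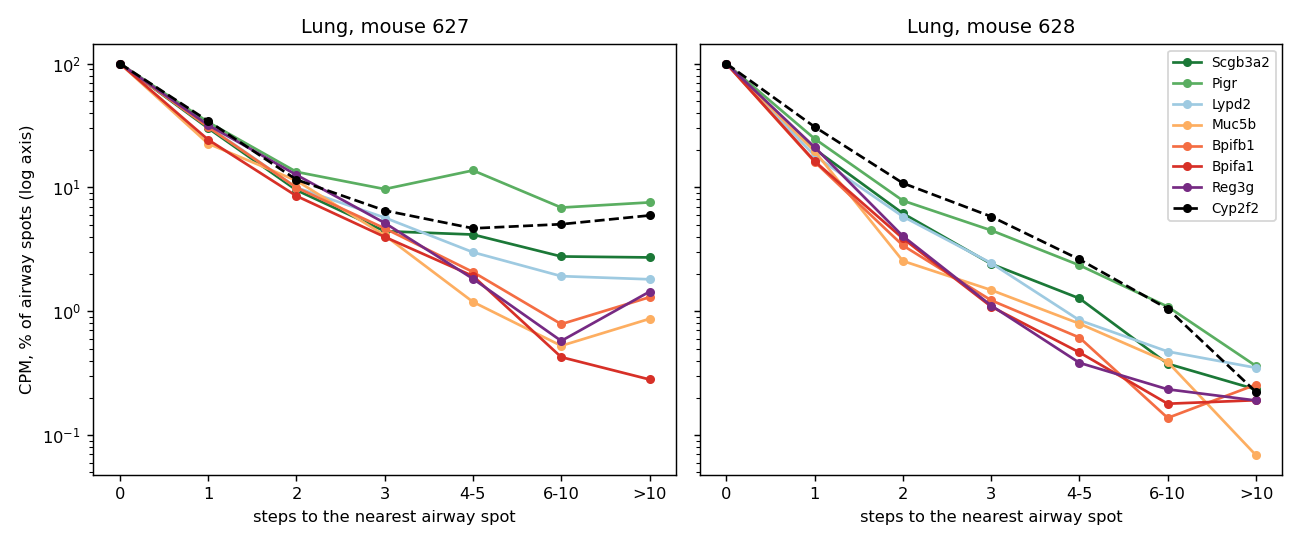
CPM of each gene as a percentage of its CPM in airway spots (log axis) against steps to the nearest airway spot, for the lungs of Mouse_627 and Mouse_628; Cyp2f2 is dashed. All curves fall within 3 steps, and Pigr and Cyp2f2 lie highest at distance in Mouse_627.

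Airway spots were joined into patches where they lay within 2 steps of each other, and patches of 5 spots or more were kept. The lung of Mouse_627 had 6 such patches (77 of 85 airway spots) and that of Mouse_628 had 9 (127 of 139), numbered by size. The cilium list, which chose the spots, varied 1.66-fold and 1.64-fold between the highest and the lowest patch, and Cyp2f2 1.88-fold and 2.21-fold. The 7 genes were spread over them unequally. Scgb3a2, Lypd2 and Pigr were found in every patch. Scgb3a2 ran from 609 to 2545 CPM over the patches of Mouse_627 (median 1487) and from 384 to 4013 CPM over those of Mouse_628 (median 1340), and was highest in patches 2, 4 and 6 of the former and 1 and 2 of the latter. Pigr ran from 75.4 to 241 CPM and from 130 to 384 CPM, a range of 3.20-fold and 2.96-fold.

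Bpifa1, Bpifb1, Reg3g and Muc5b were instead highest in a few patches, the same ones for all 4 genes, and these were also the patches highest in Scgb3a2. In Mouse_627 Bpifa1 was at 2917, 1419 and 1405 CPM in patches 2, 4 and 6, and at 15.1, 0 and 0 CPM in patches 1, 3 and 5 (2, 0 and 0 UMIs). Reg3g was at 5205, 9205 and 3672 CPM in the former and at 52.8, 9.83 and 0 CPM in the latter. Patches 2, 4 and 6 also held the 3 highest values of Bpifb1 and of Muc5b, which reached 1937 and 997 CPM in patch 4. In Mouse_628 Bpifa1 was at 15420 CPM in patch 1 and 3464 CPM in patch 2, at 121 CPM in patch 3, and had 0 or 1 UMI in each of the other 6. Reg3g followed with 17650, 7789 and 71.7 CPM in patches 1 to 3 and 0 or 1 UMI elsewhere. Muc5b was less sharply split there, with 760 and 383 CPM in patches 1 and 2 and 0 to 132 CPM in the rest. Patch 1 of Mouse_628, with 29 spots, held 50.3% of all Bpifa1 UMIs of that lung, 39.9% of those of Bpifb1 and 34.2% of those of Reg3g, against 19.3% of those of Scgb3a2 and 8.24% of those of Pigr. Lypd2 ran from 108 to 737 CPM in Mouse_627 and from 38.7 to 1027 CPM in Mouse_628, highest in the patches that were high in Bpifa1.

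**Figure D4:**
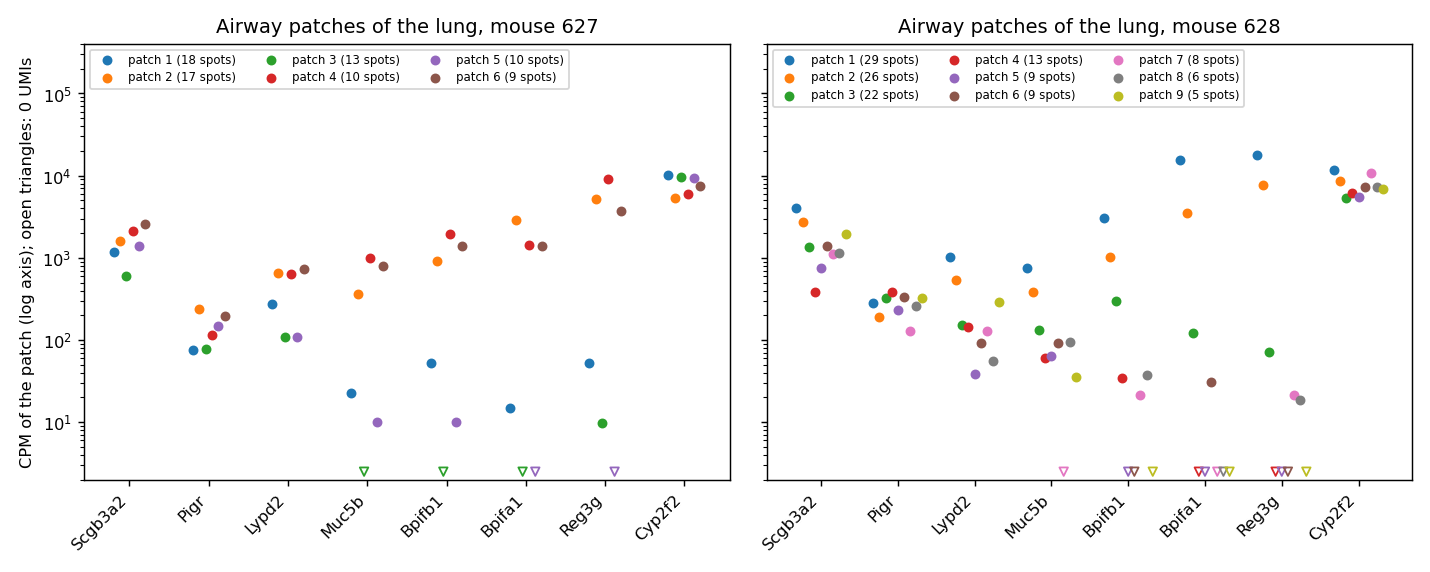
CPM of each gene (log axis) in the airway patches of both lungs, 1 point per patch, with open triangles at the lower edge for 0 UMIs. The patches lie close together for Cyp2f2 and Pigr and spread over more than 2 powers of 10 for Bpifa1 and Reg3g.

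Spots were also compared singly. The 5% of spots highest in Bpifa1 (at least 2 UMIs) shared 86.5% and 81.4% of their number with those of Reg3g, and 75.3% and 82.7% of the Reg3g spots. With Pigr they shared 13.5% and 20.2% of the Bpifa1 spots and 27.8% and 28.6% of the Pigr spots. Over the 1697 and 2780 spots, Pearson's r of log2(CPM/100 + 1) was 0.79 and 0.86 between Bpifa1 and Reg3g, 0.74 and 0.82 between Bpifa1 and Bpifb1, 0.70 and 0.69 between Muc5b and Reg3g, and 0.31 and 0.34 between Bpifa1 and Pigr. Spots of a section share their library and neighbours share tissue, so these values are descriptions. The top 1% of spots held 47.3% and 68.1% of the Bpifa1 UMIs and 24.6% and 31.4% of those of Pigr, and Moran's I, which measures the likeness of neighbouring spots, was 0.70 and 0.69 for Bpifa1 and 0.18 and 0.37 for Pigr. Of the spots highest in Bpifa1, 43.2% and 40.3% were themselves airway spots by the cilium list.

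Genes of similar pattern were ranked among 8002 genes with at least 200 UMIs in each lung. The secretory and antimicrobial genes themselves and all genes of the marker lists were left out of the ranking. Of the genes ranked, the nearest to Bpifa1, Bpifb1, Reg3g, Muc5b and Lypd2 was Sult1d1, a cytosolic sulfotransferase, with r of 0.52 and 0.57 to Bpifa1 and 0.56 and 0.51 to Reg3g. The annexin gene Anxa8 came second for Bpifa1 (0.45 and 0.49). Among the genes near to Scgb3a2 was Dnah12, an axonemal dynein (0.51 and 0.59). Of the genes ranked, Pigr was nearest to the mucosal chemokine gene Cxcl17 (0.34 and 0.54), which also came second for Muc5b (0.51 and 0.48) and Bpifb1 (0.47 and 0.49). Lypd2, which was left out of the ranking, had r of 0.35 and 0.46 to Pigr.

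To set these patterns against position in the lung, airway spots were divided by their distance from cardiac muscle. In a mouse lung section it is found in the walls of pulmonary veins and in any heart tissue left on it. It served as an approximate landmark for the hilum, and whether the near airway spots lie over larger airways was not tested. Cardiac spots were the 5% highest in 8 cardiac muscle genes, and near meant at most 5 steps. There were 51 near and 34 far airway spots in Mouse_627 and 92 and 47 in Mouse_628, with median depths of 6217 and 7994 and of 6534 and 8587 UMIs. Reg3g was at 3794 CPM in near and 17.8 CPM in far spots of Mouse_627, and at 8131 and 45.02 CPM in Mouse_628. Bpifa1 was at 1385 and 7.11 CPM in Mouse_627 and at 5090 and 37.5 CPM in Mouse_628. Near and far spots thus differed 214-fold (91.2 to 659) and 181-fold (114 to 305) in Reg3g and 195-fold (53.7 to 1614) and 136-fold (82.1 to 243) in Bpifa1. Bpifb1 was at 892 and 14.2 CPM, and at 1204 and 115 CPM. Muc5b was at 442 and 10.7 CPM, and at 403 and 77.5 CPM. For these genes the near values of both mice lay above both far values, as they did for Lypd2 and Scgb3a2 and for 16.7% of the 8017 genes tested. Lypd2 was at 505 and 167 CPM and at 496 and 132 CPM, Scgb3a2 at 1720 and 1016 CPM and at 2536 and 840 CPM. Pigr was at 161 and 114 CPM in Mouse_627 and at 251 and 290 CPM in Mouse_628, ratios of 1.42 (0.898 to 2.27) and 0.865 (0.678 to 1.11) that lie on opposite sides of 1.

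**Figure D5:**
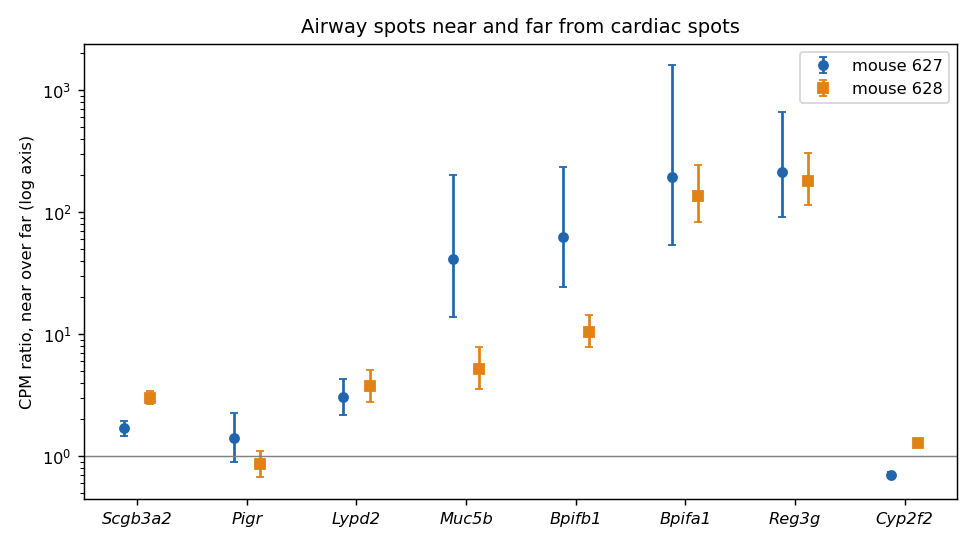
Ratio of CPM in airway spots near and far from cardiac spots (log axis) for each gene and for Cyp2f2 in Mouse_627 (circles) and Mouse_628 (squares), with 95% counting intervals and a line at a ratio of 1. Reg3g and Bpifa1 lie above 100 in both mice and the intervals of Pigr hold 1.

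In edgeR 0.137% of 8017 genes were called between near and far airway spots, 11 genes, all higher near, and 4 of the 7 genes were among them. Bpifa1 and Reg3g, with at most 18 UMIs in a far sum, passed the filter on low counts through the near spots. So did Bpifb1 (4 and 46 UMIs far), Muc5b (3 and 31) and Tff2 (0 in both mice). This count and the tests of these genes are therefore descriptions. The log2 fold changes of the 4 called genes were 7.47 for Reg3g (SE 0.56, adjusted p = 0.000952), 7.03 for Bpifa1 (SE 0.76, 0.00761), 3.91 for Bpifb1 (SE 0.57, 0.0375) and 1.72 for Lypd2 (SE 0.26, 0.0445). Muc5b, at 3.12 (SE 0.50), missed the threshold with adjusted p = 0.0601, and Scgb3a2, at 1.18 (SE 0.29), with 0.721. Both passed with the mouse as a block (3.13e-42 and 3.14e-15), where 1.7% of genes were called and 1.31% higher. These blocked p-values do not measure how well the mice agree. The ratio of near to far was 41.4 in Mouse_627 and 5.20 in Mouse_628 for Muc5b, and 1.69 and 3.02 for Scgb3a2. Pigr did not pass either way (log2 fold change 0.0051, SE 0.39, adjusted p = 0.9999, and 0.991 with the block). The other 7 called genes hold 4 of the cardiac list, which the split itself used, Tff2 of the goblet list (18 and 51 UMIs near and 0 far in both mice), and Car3 and A2ml1, a carbonic anhydrase and a protease inhibitor named here after their values were seen. Bpifb1 was not called by DESeq2 (adjusted p = 1), while Reg3g (2.49e-16), Bpifa1 (0.000188) and Lypd2 (0.00851) were. In edgeR with 10% of spots called airway Reg3g alone passed (adjusted p = 0.0108), and with 2.5% Reg3g and Bpifa1 did. Muc5b passed with any 1 of the 4 sums left out (adjusted p of at most 1.07e-06). The fold changes moved with the far spots. Without those of Mouse_628 the log2 fold change was 8.75 for Bpifa1, 6.15 for Bpifb1 and 5.24 for Muc5b, and without those of Mouse_627 it was 6.42, 3.18 and 2.43. The calls depend on the distance. With near set at 3 steps, 0 of the 7 passed in edgeR (5 genes called in all, 362 at an unadjusted p under 0.05), with log2 fold changes of 2.89 for Bpifa1 and 2.49 for Reg3g. Patches 8 and 9 of Mouse_628, at a median of 3 steps from cardiac spots, had 0 UMIs of Bpifa1. Cartilage, which rings the large airways, was also tried as the landmark in place of cardiac muscle, and is thin in these sections. The cartilage spots (at least 3 UMIs of the list) were 4 spots with 20 UMIs in Mouse_627, none of them airway. In Mouse_628 they were 2 spots with 8 UMIs, both of them airway spots in the patches that were high in Bpifa1. With that landmark 0.166% of 8457 genes were called and 0.154% higher, among them Bpifa1 (3.28, SE 0.54, adjusted p = 0.0183), Reg3g, Bpifb1, Muc5b and Lypd2, and because of these few spots the values are a description.

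Other cell types also differed between near and far airway spots, and their part in these results was not tested. The cilium list was at 7344 and 7048 CPM near and far in Mouse_627 and at 6877 and 5757 CPM in Mouse_628, so the ratio per ciliated signal was 205 and 151 for Reg3g and 187 and 114 for Bpifa1. Cyp2f2 was lower near in Mouse_627 (0.697, 0.659 to 0.738) and higher in Mouse_628 (1.28, 1.22 to 1.34), and 0 of 7 club cell genes tested were called, against 1 with the block. The 5 airway basal cell genes (Krt15, Krt5, Trp63 and others) had 9 UMIs near and 0 far in Mouse_627 and 84 and 0 in Mouse_628. The goblet list was 2.86 and 7.22 times as high near, the smooth muscle list 2.06 and 1.79 times, and the cardiac list 3.85 and 4.77 times by the choice of the spots. In edgeR 0 of 6 smooth muscle genes were called and all 6 with the block, and of 3 goblet genes tested 1 was called and 2 with the block. The list of IgA and plasma cell genes was at 633 and 231 CPM near and far in Mouse_627 and at 457 and 293 CPM in Mouse_628. In Mouse_627, 55 of its 208 near UMIs lay in a single spot. Most of the list's UMIs in airway spots of both lungs were of Xbp1 (530), which is not an IgA gene. Jchain had 95, Igha 39 and Mzb1 22, so the level of the list is not that of IgA. In edgeR 0 of the 2 genes of that list tested (Xbp1 and Jchain) were called, and 2 with the block. The alveolar type 2 list was at 0.742 and 0.718 of the far level near, with 0 of 5 genes tested called and 2 lower with the block. With spots that were both airway and cardiac left out, which was tried after the values were seen, Reg3g (7.38, adjusted p = 0.000715) and Bpifa1 (6.83, 0.0391) passed, and Bpifb1, Muc5b and Lypd2 had adjusted p of 0.0550, 0.0653 and 0.0697. The log2 fold changes of these 3 were 3.80, 3.05 and 1.62 without those spots, against 3.91, 3.12 and 1.72 with them, and Muc5b was not called with them either.

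Airway spots were last divided at the median of an 8-gene 4T1 tumour list in each section, to ask whether the genes differ where airway and tumour list UMIs lie together. The list stood at 205 and 13.0 CPM in the high and low spots of Mouse_627 and at 679 and 215 CPM in Mouse_628. In Mouse_627 these levels rest on 62 UMIs over 42 high spots, each with 1 to 4, and on 4 UMIs over 43 low spots, so the split there is close to the presence or absence of a single UMI. In Mouse_628 they rest on 387 and 103 UMIs. Bpifa1 was at 970 and 533 CPM in Mouse_627, a ratio of 1.82 (1.499 to 2.22), and at 3057 and 3292 CPM in Mouse_628, a ratio of 0.929 (0.867 to 0.995). Bpifb1 likewise went opposite ways, with ratios of 1.55 (1.22 to 1.97) and 0.768 (0.668 to 0.882). Reg3g had ratios of 1.63 (1.45 to 1.83) and 1.08 (1.02 to 1.14), and Pigr of 1.15 (0.732 to 1.80) and 1.07 (0.837 to 1.36). Other lists were also higher in the high spots of both mice, and their part in the Reg3g ratios was not tested. The smooth muscle list had ratios of 1.60 (1.43 to 1.79) and 1.38 (1.27 to 1.51), and the cardiac list of 1.21 (1.001 to 1.48) and 1.29 (1.12 to 1.49). The airway basal list had 9 UMIs in high and 0 in low spots of Mouse_627, and 56 and 28 in Mouse_628. In edgeR 0 of 8278 genes were called (0% in either direction, 105 at an unadjusted p under 0.05), and 0 in DESeq2 with 8 at an unadjusted p under 0.05, and log2 fold changes of the 7 genes lay between -0.035 (Bpifb1, SE 0.36) and 0.25 (Reg3g, SE 0.50) with adjusted p of 0.9999. With the block 0.0725% of genes were called, 0.0483% higher, and none of the 7. Bpifa1 had the largest SE of the 7 genes here, 0.72.

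Few relatives from the secretoglobin, BPI fold and Reg families were counted in the lungs. Airway spots held 609797 of 11122812 and 1049391 of 30240176 UMIs of all genes, against which the shares below can be set. Of 13 secretoglobin genes in the table, the only other with at least 50 UMIs over both lungs was Scgb1c1, with 129 UMIs, of which 15.7% and 19.2% lay in airway spots, against 46.02% and 63.6% for Scgb3a2. Of 13 BPI fold genes it was Bpifb5, with 119 UMIs and 5.26% and 4.94% in airway spots, against 56.0% and 72.2% for Bpifa1. Of 7 Reg family genes Reg3g alone reached that level, with 10302 UMIs, and each of the other 6 had at most 7.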

How the data were processed

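The deposited files hold UMI counts, not normalized, for each gene in each spot and the spots' positions, as Space Ranger 2.0.0 wrote them per the file headers (build mm10 per the labels). Spots with more than 200 genes were kept. Counts were summed per section or spot class and tested with edgeR 4.0.16 in R 4.3.3 (TMM, filterByExpr, quasi-likelihood, Benjamini-Hochberg over all genes, threshold 0.05); DESeq2 1.42.0 was an alternative. CPM scales a sum to a common total. Spots are not replicates: n = 2 mice per class. Sums of the same mouse pair because they come from 1 animal; their deviations from class means correlated at -0.31 (lung against tumour), 0.49 (airway), 0.45 (near and far) and 0.46 (tumour list). Blocked values (mouse as a block) stand beside results whose call they change. The block leaves little spread within a gene to estimate. Its p-values therefore rest largely on spread estimated across genes and not on the agreement of the mice. On simulated counts for near against far (15141 genes), 94% of 4-fold and 14% of 2-fold changes were recovered; with a shift shared by a mouse (SD 0.3 in log2), 0% and 0% without the block, 80% and 14% with it. Genes named are the 9 members, relatives with at least 50 UMIs in the lungs, up to 4 leading genes per marker list and up to 3 genes of most similar pattern that are in no list (r of at least 0.3 in both lungs). Car3, A2ml1 and Muc5ac fall outside this rule, while Muc1, Muc4 and Muc13 meet it. All of these were chosen after their values were seen. Muc2, Muc3a and Muc19 also meet it, and their values are not reported. The members and lists were chosen with earlier results of these data known. Gene positions come from the GRCm38 annotation. No doublet caller or deconvolution was run on spots. Python 3.11.15 and scipy 1.17.1 did the rest. Not all genes of most similar pattern are reported here.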

Additional observations from a re-analysis of the deposited data

How the results depend on the processing

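Having 2 mice limits every test, and ratios of Bpifa1 between near and far airway spots rest on 2 and 15 UMIs in the far spots, which were deeper per spot than the near ones. Of the gene by setting results, 49 of 63 for airway against other lung and 53 of 70 for lung against tumour kept their direction and side of the threshold, and none turned in direction; for near against far 56 of 84 did so, with Pigr alone turning, and for the tumour list split 48 of 70 did so and 21 turned. The cause of a change was not tested. With a sum left out, the lone sum of its class is assumed to vary like the other class.

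For lung against tumour edgeR called 1817 genes with the replicate block, 2565 with the mouse numbers crossed in it (chosen after seeing the data), 2022 without the low count filter, 650 on thinned spots (3 of the 7 genes in place of 5) and 883 to 6604 with a section left out (6604 without the tumour of Mouse_627, 2519 without the lung of Mouse_628), and DESeq2 called 3827. For airway against other lung, 1757 were called with the replicate block, 859 without the filter, 774 by DESeq2, 468 with 2.5% and 0 with 10% of spots called airway (0 of the 7 genes), and 0 to 1809 with a sum left out (353 without the airway sum of Mouse_627, 0 without that of Mouse_628, 1809 and 1327 without the other spots of Mouse_627 and Mouse_628; 0 to 7 of the 7 genes). For near against far, 136 were called with the replicate block, 55 without the filter, 12 by DESeq2, 3 and 6 with 2.5% and 10% airway (2 and 1 of the 7 genes), 5 at 3 steps (0 of the 7), 3 without cardiac spots (2 of the 7) and 19 to 80 with a sum left out (23 and 19 without the near spots of Mouse_627 and Mouse_628, 38 and 80 without their far spots), always with 5 of the 7. The setting of 10 steps was not run, as it leaves 6 far spots in Mouse_627, under the minimum of 10. The log2 fold change of Pigr was -0.023 with the replicate block, -0.012 in DESeq2, -0.0077 and -0.14 with 2.5% and 10% airway, -0.011 without cardiac spots and -0.47 to 0.85 with a sum left out; those of the other 6 genes kept their direction.

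For the tumour list split, 6 genes were called with the replicate block, 4 without the filter and 2 to 9 with a sum left out (0 to 1 of the 7 genes). Log2 fold changes with a sum left out ran from -1.02 to 1.90 for Bpifa1, with adjusted p = 0.0490 in edgeR without the low spots of Mouse_628, -0.51 to 0.73 for Bpifb1, -0.37 to 1.29 for Reg3g, -0.44 to 0.71 for Pigr, -0.22 to 0.41 for Scgb3a2, -0.047 to 0.45 for Muc5b and -0.042 to 0.31 for Lypd2. With 2.5% airway they were -0.75 for Bpifb1, -0.27 for Bpifa1, -0.12 for Reg3g, -0.55 for Muc5b, -0.11 for Lypd2 and -0.17 for Scgb3a2, with 10% airway -0.0031 for Lypd2 and -0.014 for Scgb3a2, and between the outer tertiles -0.042 for Scgb3a2 and 0.70 for Reg3g (adjusted p = 0.997 in edgeR, 0.0403 unadjusted).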

Other observations

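The mucin family, named here after its values were seen, differed widely in the share of UMIs that lay in airway spots. For scale, airway spots held 609797 of the 11122812 UMIs of all genes in the lung of Mouse_627 and 1049391 of 30240176 in that of Mouse_628. Of 13 mucin genes measured, 7 had at least 50 UMIs over both lungs. Muc5b had 55.6% and 69.4% of its UMIs in airway spots in Mouse_627 and Mouse_628, and the membrane mucin Muc4 33.04% and 49.4% (115 and 166 UMIs in all). Muc1, the most counted with 499 and 1079 UMIs, had 14.2% and 14.3% there, and Muc13 2.86% and 1.61%. The gel-forming Muc5ac had 6 and 42 UMIs, of which 3 and 20 lay in airway spots.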
